A study of Mus musculus with 6 samples.

Results

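Clustered histone genes encode the linker histone H1 and the core histones H2A, H2B, H3 and H4, and lie in gene clusters on a few chromosomes. They were taken as the genes of the deposited table whose symbols carry the cluster names Hist1 to Hist4 and whose mean over the 6 samples was at least 1 TPM (TPM being a read count corrected for gene length and sample total). Of the 26898 genes in the table, 57 carried such a symbol and 39 reached this level. Of these 39 genes, 36 lie in the Hist1 cluster on chromosome 13, 2 in the Hist2 cluster on chromosome 3 and 1 in the Hist3 cluster on chromosome 11. Just inside the limit were Hist1h2bp at 1.01 TPM and Hist1h2bh at 1.05 TPM, and just outside were Hist3h2ba at 0.919 TPM and Hist1h4c at 0.771 TPM. H1f0 was the single gene with a newer kind of histone symbol. It encodes a replacement H1 outside the clusters and is described with the replacement histones.

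RNA was sequenced from primary mouse embryonic fibroblasts (MEFs, connective tissue cells grown directly from embryos) of the C57BL/6 strain at passage 3, kept in medium with 10% serum according to the labels (the study's methods state more serum for its MEFs). WT cells (samples 4, 5 and 8) were Kansl1 fl/fl, meaning that both Kansl1 alleles carry recombination sites, and KO cells (samples 3, 7 and 10) were Kansl1 fl/fl with CAG-cre, a Cre recombinase under a broadly active promoter that tamoxifen switches on. All cells received 1 μM tamoxifen for 48 h, so the groups differ in both Kansl1 and Cre, and no Cre-positive cells with intact Kansl1 were analysed here. The methods of the study give 3 embryo-derived cultures in each group. KANSL1 is a scaffold subunit of the NSL complex, which acetylates histone H4.

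Histone proteins package DNA, and a cell must make a new set of them each time it copies its genome. Most clustered histone genes are switched on together in S phase by NPAT, and their mRNAs are unusual in having no poly(A) tail. These mRNAs end just after a short hairpin, the stem-loop, which the protein SLBP binds, and U7 snRNP and the nuclease CPSF3 cut the transcript behind it. Some of these genes also make longer, polyadenylated transcripts, which are known from cells that have stopped dividing. The comparison asked how these genes differed between WT and KO MEFs, and whether genes with a longer annotated form differed from those without.

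A 16-base stem-loop was found behind the stop codon in 29 of the 39 genes, starting 25 to 47 bases after it, in transcripts of GENCODE release M21 (mouse build GRCm38). The search found it in 31 of 21706 other coding genes (0.143%) within the first 200 bases after the stop codon. These other genes are all those without a clustered histone row in the deposited table. Annotated clustered histone genes that are absent from the table can therefore be among the 31. In 5 genes the annotated transcripts stopped too early to cover it, and in 5 (Hist1h2bc, Hist1h2bq, Hist1h2br, Hist2h2be and Hist1h1a) no match was present in what is annotated. The sites below, written 5′ to 3′ as DNA with the stem-loop in capitals, cover all 6 versions found. They are shown because this element marks the mRNA class to which the genes belong.
Hist1h4n: actaaaGGCCCTTTTCAGGGCCatccaa
Hist1h4a: accaaaGGCCCTTCTCAGGGCCgcccac
Hist1h4i: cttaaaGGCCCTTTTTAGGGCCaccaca
Hist2h3c2: cacaaaGGCTCTTTTCAGAGCCaccaca
Hist1h3b: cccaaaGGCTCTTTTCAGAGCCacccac
Hist1h3c: aaaaaaGGCTCTTTTAAGAGCCacctaa
Hist1h3g: tttaaaGGCTCTTCTTAGAGCCacccat
Hist1h1c: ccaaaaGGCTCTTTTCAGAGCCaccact

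The version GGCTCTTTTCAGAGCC was carried by 17 genes of the H1, H2A, H2B and H3 types, among them Hist2h3c2, Hist1h3b and Hist1h1c. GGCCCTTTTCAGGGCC was found in 4 genes, all of them H4 genes (Hist1h4d, Hist1h4h, Hist1h4m and Hist1h4n). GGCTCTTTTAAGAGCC was found in 5 genes of the H2B and H3 types, and each of the other 3 versions in a single gene.

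By their annotation, the 39 genes were split into 20 long-form genes, with an intron or with a transcript reaching over 150 bases past the stop codon, and 19 short-form genes, in which every annotated transcript ends close to the stop codon. The short form stands for the replication-linked mRNA and the long form for a possible polyadenylated one, but annotation does not show which form was present in these cells. Hist1h1b, Hist1h2bn, Hist1h3h, Hist1h3i and Hist1h4k are annotated with 0 bases past the stop codon. Their short form thus rests on an annotation that goes no further than the stop codon. The short-form gene Hist1h4h has the poly(A) signal ATTAAA 32 bases before its annotated end. A long form did not mean that the stem-loop was lost. In Hist1h1c the annotated transcript runs 840 bases beyond the stem-loop, and in Hist2h3c2 it runs 377 bases beyond it. Hist1h2bq and Hist1h2br (2 introns each) and Hist1h2bc, Hist1h2be and Hist1h2bp (1 intron each) have spliced forms.

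The Kansl1 transcript, measured first as a check of the labels, stood at 28.5 TPM (WT 4), 26.7 TPM (WT 5) and 24.4 TPM (WT 8), against 13.7 TPM (KO 3), 15.8 TPM (KO 7) and 14.4 TPM (KO 10). Values below follow this order of samples. Every KO sample lay below every WT sample. The log2 fold change was -0.82 (SE 0.11, limma adjusted p = 0.000859). Reads assigned to genes, recovered from the TPM values, numbered 22809560 to 24259408 in WT and 17654338 (KO 3) to 27716119 (KO 7) in KO samples. All 10 fibroblast markers were present and none passed the test, with 1 higher at an unadjusted p under 0.05. The summed level of 8 macrophage markers was 37.9 to 46.0 TPM in WT and 85.1 to 170.0 TPM in KO samples, with all 7 tested markers separated upwards, Lyz2 and C1qc of these called higher, and Ptprc, which marks blood cells, at 0.0872 to 0.257 TPM. The tested epithelial markers Krt18 and Krt8 (2 of 4, the list summing to 40.4 to 45.7 TPM in WT and 49.2 to 66.3 TPM in KO samples) and the tested endothelial marker Kdr (1 of 4, 1.10 to 1.87 and 2.31 to 3.10 TPM) were also separated upwards and not called. Of all 14799 tested genes, 13.3% had every KO sample above every WT sample, and 1.64% were called higher. The defining markers Epcam, Cdh1, Pecam1 and Cdh5 had a mean below the 1 TPM limit in both groups. Their part in the histone results was not tested.

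Among the clustered histone genes, every call in the comparison of KO with WT MEFs was upwards, and it was made in core histone genes. Of the 39 genes, 15 (38.5%) were called higher and 0 lower at an adjusted p under 0.005 and a log2 fold change beyond 0.5 in limma. Over all 14799 tested genes, 1.64% were called higher and 9.03% lower, so most changes elsewhere went the other way. No histone gene was lower even at an unadjusted p under 0.05, or with voom, a limma test made on recovered reads, which called 9 histone genes higher (2.93% of all genes) and 0 lower (14.5% of all genes). The median log2 fold change of the 39 genes was 0.71, beside -0.07 over all tested genes, and 38 of the 39 values were positive, against 42.6% of all tested genes. With the adjusted p relaxed to under 0.05 and the same fold threshold, 22 were higher (4.69% of all tested genes). The 3 KO samples lay above the 3 WT samples in 26 of the 39 genes (66.7%), where 13.3% of tested genes had this order. All KO samples lay below all WT samples in 0 histone genes, against 29.9% of tested genes. The remaining 13 genes overlapped between the groups. Each fold change was computed from log2(TPM + 1), so that weakly expressed genes appear to change less than they did. In such bulk samples, a change in how many cells are in S phase and a change in RNA per cell cannot be told apart.

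Summed over the 39 genes, histone transcripts held 400.4 ± 45.9 TPM (SD, n = 3) in WT and 713 ± 96.6 TPM (SD, n = 3) in KO samples, a ratio of 1.78. By sample, the sums were 452, 387 and 363 TPM for WT 4, 5 and 8, against 818, 695 and 627 TPM for KO 3, 7 and 10. No KO sum came near a WT sum. KO 3, the sample with the fewest reads, was the highest KO sample in 30 of the 39 genes, KO 7 in 7 and KO 10 in 2. Without KO 3 the median log2 fold change was 0.64 and 8 genes were called, in a fit that has fewer samples by construction.

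Depth limited what could be seen in many of these genes. Only 4 of the 39 genes had 100 or more recovered reads in every sample, and 23 had 10 or more. A group of 9 genes had a WT mean under 1 TPM and entered the test through the KO group. Of these, Hist1h3e and Hist1h3a were called higher. Of the 17 genes that averaged 5 TPM or more, 12 were called and the median log2 fold change was 1.15. Among the 22 below it, 3 were called and the median was 0.56.

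Of the 7 H4 genes, whose product is the core histone that NSL acetylates, 3 were called higher. Hist1h4n had the largest log2 fold change of the 39 genes on the log2(TPM + 1) scale, although Hist1h3a, a weakly expressed H3 gene, passed it with voom (2.34 against 2.28) and with a pseudocount of 0.1 (2.33 against 2.30). Hist1h4n (short form, chromosome 13 from 21831767 to 21832196, minus strand) stood at 15.5, 10.9 and 11.3 TPM in the WT samples, against 83.8, 65.8 and 41.9 TPM in the KO samples. Its lowest KO sample was thus well above its highest WT sample, although the KO samples themselves spread widely. The log2 fold change was 2.22 (SE 0.23, limma adjusted p = 0.000324).

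Hist1h4m (short form) was at 20.3, 21.3 and 18.4 TPM in the WT samples, against 61.2, 44.4 and 46.3 TPM in KO samples (log2 fold change 1.29). Hist1h4h (short form) was at 4.73, 2.91 and 5.38 TPM in the WT samples, against 18.7, 17.3 and 14.3 TPM in KO samples (1.76). Both were called higher, with the groups well apart. These 3 called genes carry the same 16 stem-loop bases, as does Hist1h4d, which was not called.

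The other H4 genes were not called. Hist1h4a (long form) was separated between the groups, at 2.52, 0.846 and 3.13 TPM against 10.2, 7.28 and 5.20 TPM, and its log2 fold change of 1.47 missed the threshold with a limma adjusted p of 0.00694. Hist1h4i (long form), the most abundant H4 gene in WT, was at 26.3, 22.9 and 19.9 TPM in the WT samples, against 33.3, 28.3 and 30.5 TPM in KO samples, with a log2 fold change of 0.40. Hist1h4k and Hist1h4d overlapped between the groups. The summed level of the 7 H4 genes was 66.2 ± 7.33 TPM (SD, n = 3) in WT and 177 ± 35.1 TPM (SD, n = 3) in KO samples, a ratio of 2.67 that was the highest of the 5 histone types.

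The 10 H3 genes were all separated upwards in the KO samples and 7 were called higher (3 with voom). Their median log2 fold change was 1.12, with a range of 0.56 to 1.39. Hist1h3a, Hist1h3e and Hist1h3f had WT means of 0.654, 0.922 and 0.775 TPM and entered the test only through the KO samples. Their separation, and the calls of Hist1h3a and Hist1h3e, are thus not independent of the limit that admitted them. Hist2h3c2 (long form, chromosome 3 from 96238108 to 96239127, minus strand) was 7.98, 7.83 and 7.96 TPM in the WT samples, against 25.1, 22.3 and 19.9 TPM in KO samples. The WT samples were almost level and all KO samples were far above them. Its log2 fold change was 1.39 (SE 0.12), with the smallest adjusted p among the histone genes (limma, 0.000170).

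Hist1h3d (long form) was at 6.03, 5.20 and 6.16 TPM in the WT samples, against 14.3, 12.8 and 12.5 TPM in KO samples, a log2 fold change of 1.06. Hist1h3i (short form) was at 10.2, 6.10 and 5.90 TPM against 19.1, 16.1 and 16.4 TPM (1.15), and Hist1h3c (short form) at 4.11, 5.61 and 5.19 TPM against 16.6, 10.6 and 11.6 TPM (1.21). All of them were called higher. Hist1h3a (1.38), Hist1h3e (1.09) and Hist1h3h (0.71) were the other called H3 genes. With voom these calls and that of Hist1h3c were lost, at log2 fold changes of 2.34, 1.68, 0.81 and 1.31 in that order. The Hist1h3h call was also lost when any 1 sample was left out.

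Hist1h3b was the most abundant clustered H3 gene. It was at 31.6, 22.4 and 22.6 TPM in the WT samples, against 62.8, 40.9 and 34.3 TPM in KO samples. The lowest KO sample was only just above the highest WT sample, and the log2 fold change of 0.80 was not called (limma adjusted p = 0.0217). Hist1h3f (1.17) and Hist1h3g (0.56) were also separated and not called.

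The H2B genes were mixed. Of 13 genes, 3 were called higher and 8 were separated, with a median log2 fold change of 0.61. Hist1h2bq (long form) was at 2.88, 3.62 and 2.93 TPM in the WT samples, against 12.7, 10.4 and 9.95 TPM in KO samples, and Hist1h2br (long form) at 2.68, 3.30 and 2.67 TPM and 11.6, 9.47 and 9.11 TPM. Their log2 fold changes were 1.53 and 1.51. These are not independent values, since their recovered reads were 47 and 48, 64 and 64, 56 and 56, 186 and 187, 203 and 203, and 179 and 180 in the 6 samples, and the sequences of both genes are largely the same. Counted as 1 gene, they leave 14 called genes. Hist1h2bb (short form) was the third called H2B gene, at 2.43, 1.80 and 1.25 TPM against 8.66, 4.06 and 5.51 TPM (1.30), but this call was lost with voom (adjusted p = 0.0204), under other settings and without WT 5, WT 8, KO 3 or KO 10.

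Hist1h2bc (long form) was the most abundant clustered histone gene in these cells. It was at 128, 114 and 113 TPM in the WT samples, against 180.0, 173 and 153 TPM in KO samples. The groups were separated. Its log2 fold change of 0.51 (SE 0.10) had a limma adjusted p of 0.00574, just short of the threshold, which it passed with voom (0.52, adjusted p = 0.00243). Hist1h2bg (long form) was at 15.6, 15.7 and 9.38 TPM against 32.3, 26.2 and 21.02 TPM and was not called (0.93, limma adjusted p = 0.00942). Hist2h2be and Hist1h2bh (both long form) had log2 fold changes of 0.06 and 0.07 and overlapped between the groups. The remaining H2B genes, Hist1h2be, Hist1h2bf, Hist1h2bj, Hist1h2bk, Hist1h2bn and Hist1h2bp, lay between 0.56 and 0.79 and were not called.

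Of the 4 H2A genes, the 2 short-form genes were called higher with limma, and 0 of the 4 with voom. Hist1h2ab was at 5.22, 5.06 and 6.69 TPM in the WT samples, against 14.5, 9.16 and 11.4 TPM in KO samples (log2 fold change 0.92). Hist1h2ad was at 1.51, 3.39 and 3.32 TPM and at 8.17, 6.13 and 7.64 TPM (1.19). The long-form genes Hist1h2ac (0.57) and Hist3h2a (0.24) were not called.

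Of the 5 linker histone H1 genes, none was called with limma or voom, all overlapped between the groups, and 1 was higher at an unadjusted p under 0.05. Hist1h1c (long form) was the second most abundant clustered histone gene. It was at 121, 101 and 89.2 TPM in the WT samples, against 137, 131 and 119 TPM in KO samples. KO 10 fell below WT 4, and the log2 fold change was 0.32 (SE 0.12). Hist1h1b (short form) was the single gene with a negative value, -0.03 (SE 0.25). Hist1h1a (0.48), Hist1h1d (0.28) and Hist1h1e (0.38) were also low in level, and their values with voom were 0.76, 0.50 and 0.85. Summed over the 5 genes, H1 transcripts were at 109 ± 18.3 TPM (SD, n = 3) in WT and 136 ± 9.39 TPM (SD, n = 3) in KO samples, a ratio of 1.25.

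Called genes were found in both classes of transcript form. Of 19 short-form genes, 10 were called higher and 14 were separated, with a median log2 fold change of 0.80. The 10 include Hist1h3h and Hist1h3i, annotated only up to the stop codon, and Hist1h4h, which has a poly(A) signal. Of 20 long-form genes, 5 were called (Hist2h3c2, Hist1h2bq, Hist1h2br, Hist1h3d and Hist1h3e) and 12 were separated, with a median of 0.58. Both medians lay above the -0.07 of all tested genes. With voom, on the scale of recovered reads without a TPM pseudocount, the medians were 0.98 and 0.93, and 4 of 19 short-form and 5 of 20 long-form genes were called. The excess of called short-form genes was thus absent with voom. The difference between the classes was not tested.

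In summed TPM the classes stood further apart. Short-form transcripts summed to 107 ± 11.7 TPM (SD, n = 3) in WT and 272 ± 59.6 TPM (SD, n = 3) in KO samples, a ratio of 2.53. Long-form transcripts summed to 293 ± 34.4 TPM (SD, n = 3) in WT and 441 ± 38.0 TPM (SD, n = 3) in KO samples, a ratio of 1.51. The short-form share of clustered histone TPM was 26.7%, 26.3% and 27.4% in WT 4, 5 and 8. It was 41.4%, 36.4% and 35.8% in KO 3, 7 and 10, with no overlap between the groups. Hist1h2bc and Hist1h1c together made up 55.2% to 55.7% of clustered histone TPM in WT and 38.7% to 43.8% in KO samples. These long-form genes thus weigh heavily in the sums.

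The classes also differed in make-up. All 5 called long-form genes encode H3 or H2B, and among core histones alone 10 of 17 short-form and 5 of 17 long-form genes were called, with medians of 0.92 and 0.71. Voom turned this order, with 4 short-form and 5 long-form core histone genes called and medians of 1.01 and 1.18. Restricted to genes that averaged 5 TPM or more, 8 of 9 short-form and 4 of 8 long-form genes were called with limma, but 4 and 5 with voom. A stricter list holds the 5 genes known for polyadenylated transcripts, Hist1h1c, Hist1h2bc, Hist2h2be, Hist3h2a and Hist1h2ac. With limma 0 of these were called, while 3 were higher at an unadjusted p under 0.05 and 1 was called with voom, and their median log2 fold change was 0.32. Of the other 34 genes, 15 were called, with a median of 0.86. The list holds no H3 or H4 gene, the types in which 7 and 3 genes were called. The part of histone type in this difference was not tested. The summed level of the 5 genes was 1.34-fold higher in KO samples and that of the other 34 was 2.36-fold higher. An annotated transcript end with a poly(A) signal, AATAAA or ATTAAA in its last 50 bases, was present in 10 genes, of which 3 were called, with a median of 0.65. Of the 29 genes without one, 12 were called, with a median of 0.79, and with voom the medians turned to 1.205 with and 0.96 without a signal.

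Clustered histone genes of 1 type are near copies, and reads that match several of them can be counted at more than 1 gene or dropped. For each gene, the share of its 50-base stretches that occur in another gene was measured, and the median was 49.3%. Of the 10 genes with under 25% shared stretches, 1 was called (Hist1h3d, at 24.8% just under this limit) and the median log2 fold change was 0.40. Of the 29 genes with more, 14 were called and the median was 0.93. This measure moves with the class, since the median shared share was 60.4% in short-form and 31.0% in long-form genes. It also moves with histone type, with a median of 2.25% in H1 genes and 51.9% in core histone genes. In the 5 genes known for polyadenylated transcripts the median was 14.1%, against 51.9% in the other 34. Among genes with at least 25% shared stretches, 10 of 17 short-form genes (median 0.92) and 4 of 12 long-form genes (median 1.01) were called, and with voom 4 genes of each. The values of single genes are therefore uncertain to the extent that their reads match several genes. This holds for Hist1h4n and Hist1h4m, in which 85.6% and 89.8% of the stretches were shared. The part of shared reads in the differences between classes and between histone types was not tested.

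By position, the Hist1 genes fall into 3 blocks on chromosome 13. The block from 21717659 to 21837530 holds 10 of the genes, of which 6 were called higher (5 with voom) with a median log2 fold change of 0.93, and its summed level was 57.8 ± 7.04 TPM (SD, n = 3) in WT and 172 ± 35.5 TPM (SD, n = 3) in KO samples, a ratio of 2.98. It contains Hist1h4n, Hist1h4m, Hist1h2bq and Hist1h2br. The block from 22035870 to 22043676 holds 3 genes with 0 called by limma or voom, although all 3 were separated and all had an unadjusted p under 0.05. The block from 23531050 to 23764406 holds 23 genes with 8 called (3 with voom), a median of 0.80 and a ratio of sums of 1.57, in which Hist1h2bc and Hist1h1c weigh most. The first block also has a median shared share of 87.0%, against 40.4% in the last, so position and shared sequence cannot be told apart here.

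Histone genes often lie head to head and share the DNA between them as a promoter. Of 10 such pairs with starts less than 1000 bases apart, 3 had both genes among the 39. In Hist1h2bf and Hist1h2ad, 184 bases apart, the log2 fold changes were 0.56 (not called) and 1.19 (called). With voom they were 0.96 and 1.43, and neither gene was called. Hist1h2ac and Hist1h2bc, 250 bases apart, had values of 0.57 and 0.51 at mean levels of 1.06 and 144 TPM, but with voom, on the scale of recovered reads, these were 1.31 and 0.52. Hist1h2bh and Hist1h3f, 659 bases apart, had values of 0.07 and 1.17, and of 0.14 and 2.11 with voom.

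Promoter sequences from RefSeq (build GRCm38.p6, 250 bases before to 50 after the start) were matched for 35 of the 39 genes. The letters TATAAA, on either strand, were present in 23 of these (65.7%) and in 13.6% of all 32851 promoters of this length. The letters CCAAT, on either strand, were present in 30 (85.7%), including all of the matched H1, H2A, H2B and H3 genes and 2 of 7 H4 genes, against 37.4% of all promoters. The octamer ATTTGCAT, known from H2B promoters, was present on either strand in 7 of the 35, of which 3 were H2A and 4 H2B genes, against 1.74% of all promoters. The promoter of the called gene Hist1h2ad (chr13:23574131-23574430, plus strand) is shown because it covers the DNA shared with Hist1h2bf, with 1 TATAAA and 4 CCAAT matches in capitals (ATTGG is CCAAT on the other strand).
Hist1h2ad: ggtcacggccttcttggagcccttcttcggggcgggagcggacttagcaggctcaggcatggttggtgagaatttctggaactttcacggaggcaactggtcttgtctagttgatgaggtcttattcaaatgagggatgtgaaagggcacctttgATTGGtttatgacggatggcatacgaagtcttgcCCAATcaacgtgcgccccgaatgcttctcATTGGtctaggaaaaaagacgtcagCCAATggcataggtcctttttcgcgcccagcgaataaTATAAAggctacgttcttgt

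The genes that make, process and degrade histone mRNAs were not called higher. Of 24 tested, 0 were called higher and 4 lower, with a median log2 fold change of -0.29, where 9.03% of all tested genes were called lower. In 11 of the 24 genes all KO samples lay below all WT samples, against 29.9% of all tested genes. The called genes were Ccne2 (-0.90) and Cdk2 (-0.70), which form the kinase that activates NPAT, Cpsf3 (-0.78), which cuts histone pre-mRNA, and Ncbp2 (-0.51), which binds the mRNA cap and whose call was lost with voom (-0.50, just inside the limit). Slbp, which binds the stem-loop, was at 18.8, 17.9 and 14.2 TPM in the WT samples, against 11.1, 15.1 and 13.7 TPM in KO samples. These groups overlapped, and its log2 fold change was -0.33 (limma adjusted p = 0.125). Npat had a value of -0.11, Casp8ap2, a partner of NPAT, -0.50, and the U7 snRNP genes Lsm10 and Lsm11 had -0.44 and -0.05. None of these passed the test with limma, while Casp8ap2 passed it with voom (-0.50, adjusted p = 0.00103).

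S phase genes, which serve DNA replication, were lower or not called. Of 29 tested, 0 were higher and 11 lower, where 9.03% of all genes were called lower, and the median log2 fold change was -0.65. In 26 of the 29 all KO samples lay below all WT samples, an order seen in 29.9% of all tested genes. The 5 largest falls were in Rfc4 (-1.18), which loads the replication clamp, Prim1 (-1.15), the primase that starts new strands, Cdc6 (-1.12) and Gins3 (-1.09), which assemble the replicative helicase, and Mcm10 (-0.97). Rfc4 was at 19.3, 19.7 and 19.0 TPM in the WT samples, against 7.71, 9.69 and 6.72 TPM in KO samples. Pcna, at -0.15, overlapped between the groups.

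Replacement histone genes, which lie outside the clusters and mostly make polyadenylated mRNAs, were likewise lower or not called. Of 11 tested, 0 were higher and 2 lower, H1f0 (-0.94), a linker histone, and H2afy2 (-0.73), a macroH2A gene, and the median was -0.14. With 9.03% of all tested genes called lower, a count of 2 in 11 is close to the background. H2afj, a variant H2A gene, was separated upwards, at 10.9, 13.8 and 10.9 TPM against 18.1, 18.3 and 17.1 TPM, and was not called (0.56, limma adjusted p = 0.00857), although it was called with voom. In all 3 lists, 0 genes were higher with limma, and none but H2afj was higher at an unadjusted p under 0.05.

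Because replication-linked histone mRNAs lack a poly(A) tail, the libraries were also examined for other RNAs without one. Whether libraries were made by poly(A) selection is not given in the sources used here. Of 15 such RNAs, 5 were matched and 3 tested. Rn7sk, the RNA that holds back elongation by RNA polymerase II, was at 1.49, 2.76 and 3.19 TPM in the WT samples, against 9.97, 14.7 and 23.0 TPM in KO samples. It was called higher with a log2 fold change of 2.24, and all KO samples were above all WT samples. KO 10 was the highest sample. Terc, the telomerase RNA, overlapped between the groups at 0.22. Gm23935, a very short RNA, was the most abundant of the list at 155090, 183488 and 243422 TPM in the WT samples, against 256234, 155190 and 198600 TPM in the KO samples. The groups overlapped, with a log2 fold change of 0.06. KO 3 was highest in both Gm23935 and the summed clustered histone level. WT 8, the next highest in Gm23935, had the lowest clustered histone sum. The part of differing capture of RNAs without a tail in the histone results was not tested.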

How the data were processed

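RNA-seq of 6 MEF samples was analysed, 3 WT and 3 KO, grouped by their titles. The authors deposited gene expression as TPM, which sums to the same total in each sample. The log2 fold change and adjusted p-value that the authors deposited for their own comparison were not used. The methods of the study name the NEBNext Ultra RNA kit, STAR and mm10, whereas the submitters' processing notes name Bowtie 0.12.2. The counting program, its annotation and its handling of reads that match several genes are not given in the sources used here. Exons overlap on the same strand in Hist1h2be and Hist1h1e, in Hist3h2a and Trim17, and in Hist1h2ac and Gm24991. Both Hist1h2be and Hist1h1e also overlap Gm11398 on the same strand. The kit does not mark strand for the opposite-strand overlaps of Hist1h2ab, Hist1h2ac, Hist1h2ad and Hist3h2a. The levels of all these genes are therefore uncertain.

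Genes averaging 1 TPM or more in WT or in KO were compared by limma (3.58.1, in R 4.3.3). The input was log2(TPM + 1), the variance was allowed to follow expression and there was no covariate, and p-values were adjusted by Benjamini-Hochberg over 14799 genes. Thresholds were those of the study. The step was also run on counts simulated from the WT means, with the same small spread set for every gene. Real KO samples varied more in genes such as Hist1h4n, so this run does not measure how reliable the histone calls are. Whole reads (100% of low values within 0.05) were recovered from TPM and merged exon length for depth and for voom. Classes, stem-loops and shared 50-base stretches came from GENCODE M21, of which 26876 gene identifiers matched. Of 70 clustered histone genes annotated there, 57 rows were analysed. Because the unit is TPM, voom was used only as an alternative, and edgeR and DESeq2 were not run. The members and lists were chosen with earlier results of these data known. Genes were named by rule (Kansl1, the called members up to the 10 largest differences, the 10 most abundant members, all long-form members, up to 5 called genes per related list, and Npat, Casp8ap2, Slbp, Lsm10 and Lsm11), and the remaining members are named to account for all 39.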

Additional observations from a re-analysis of the deposited data

How the results depend on the processing

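No histone gene was called lower under any alternative, except that H1f0 would be 1 lower gene if it were counted among them, and the medians of the 39 genes and of both classes stayed positive throughout. Against 15 genes called higher, 6 were called without the expression filter, 8 (of 10 tested) with a filter at a mean of 10 TPM, 9 with voom on recovered reads and 9 without the variance trend. Leaving out 1 sample gave 8 to 14 genes, with 9 without WT 5, 8 without WT 8 and 8 without KO 3. Hist1h2bq, Hist1h2br, Hist1h3d, Hist1h4m, Hist1h4n and Hist2h3c2 were called in every fit other than the filter at 10 TPM, which did not test all of them. The count over all genes was 1579, 341 without the filter, 2582 with voom, 3147 at an adjusted p under 0.05 and 758 to 1081 without 1 sample.

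The median of the 39 genes was 0.71. It was 0.98 with a pseudocount of 0.1, 1.04 with the filter at 10 TPM, 0.96 with voom and 1.15 for genes of at least 5 TPM, and 0.629 to 0.861 without 1 sample. For long-form genes, 0.58 became 0.93 with a pseudocount of 0.1, 0.93 with voom and 0.32 for the list of known polyadenylated genes, and 0.532 to 0.680 without 1 sample. For short-form genes, 0.80 became 1.02 with a pseudocount of 0.1, 1.29 with the filter at 10 TPM and 0.98 with voom, and 0.660 to 0.925 without 1 sample.

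Signs turned for genes near 0. Hist1h1b was 0.0022 with a pseudocount of 0.1, 0.0503 with median-of-ratios scaling and 0.0354 with voom, and -0.298 to 0.238 without 1 sample. Without 1 sample, Hist2h2be was -0.068 to 0.218 and Hist1h2bh -0.048 to 0.272. Lsm11 was 0.0467 with median-of-ratios scaling and -0.140 to 0.068 without 1 sample. The causes were not tested. No paired analysis was possible because no replicate number occurs in both groups. Counting H1f0, counting Hist1h2bq and Hist1h2br once and filtering on the mean of 6 samples were chosen after the data were seen. Depth limits the single genes, of which 16 of 39 fell under 10 reads in at least 1 sample.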
